A study of Mus musculus with 6 samples.

Results

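The small leucine-rich proteoglycans are secreted matrix proteins, and 10 of their genes (Dcn, Lum, Bgn, Fmod, Ogn, Omd, Aspn, Prelp, Podn and Epyc) were examined in C3H10T1/2 cells, a mouse mesenchymal cell line that can be turned into bone or fat cells in culture. Each gene was chosen by its mouse symbol and matched to 1 Ensembl gene of the count table, so that 10 of 10 genes were found among 55401. RNA had been sequenced from 3 derivatives of the line, which carried a control short hairpin RNA (shControl), a hairpin against Nfib (shNFIB) or a hairpin against Kmt2a, the gene for the histone methyltransferase MLL1 (shMLL1). Each derivative was sampled without treatment (day 0) and again at day 7 of culture in an osteogenic medium. Day 7 is taken from the sample labels, and the treatment text that the samples share names other lengths of culture. This medium held dexamethasone at 0.1 µM, the stable phosphate ester of ascorbic acid at 100 µg/ml and β-glycerophosphate at 20 mM. The labels give the genotype as WT and do not say how many hairpins or clones were used. Each of the 6 conditions has a single library, with no second culture. Time in culture and the osteogenic medium cannot be told apart, and in bulk RNA fewer cells of a type and less RNA per cell cannot be told apart either.

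The members of the family share a core of leucine-rich repeats. Many carry sulfated sugar chains, of chondroitin or dermatan sulfate on decorin (Dcn), biglycan (Bgn) and epiphycan (Epyc) and of keratan sulfate on lumican (Lum), fibromodulin (Fmod) and osteomodulin (Omd), whereas asporin (Aspn) has none and instead bears a run of aspartate that binds calcium. They bind collagen and shape its fibrils, and several bind growth factors such as TGF-β. In bone, biglycan and decorin belong to the organic matrix and osteomodulin is known from osteoblasts, while lumican, keratocan (Kera) and fibromodulin are best known from cornea and tendon and epiphycan from growth plate cartilage.

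The libraries held between 21608680 counts (shMLL1 at day 7) and 34774066 counts (shNFIB at day 0). Levels are in CPM, the counts of a gene relative to the size of its library after TMM scaling, a correction for differences in library make-up whose factors ran from 0.930 to 1.13, both of them in shMLL1 (day 0 and day 7). The hairpin targets were lowest in their own lines, with Nfib at 34.0 CPM at day 0 and 8.04 CPM at day 7 in shNFIB, and Kmt2a at 32.5 then 34.9 CPM in shMLL1. In shControl, Nfib was at 116.3 then 83.32 CPM and Kmt2a at 74.69 then 66.17 CPM. Nfib in shNFIB was thus 3.418-fold below shControl at day 0 and 10.36-fold at day 7, so the shNFIB days differ in their level of knockdown. Kmt2a in shMLL1 was 2.296-fold and 1.895-fold below. Nfib was also below shControl in shMLL1, at 68.9 then 72.9 CPM. Of 11 mesenchymal markers, Ly6a, Vim and Col1a2 were the most abundant per length and only Nt5e was close to 0, and the markers summed to between 7949 and 19400 CPM. The 8 markers of blood, endothelial and epithelial cells summed to between 0.300 and 9.23 CPM, and at day 0 nearly all of it came from Cdh1. The osteoblast markers Ibsp, Sp7 and Bglap were at or near 0 in every library, and the 8 osteoblast markers went from 263 to 1554 CPM in shControl, from 244 to 265 CPM in shNFIB and from 275 to 358 CPM in shMLL1 between the days. Most of that sum was Spp1, at 217 then 1378 CPM in shControl, and Alpl was at 3.63 CPM in shControl, 7.18 CPM in shNFIB and 0.0822 CPM in shMLL1 at day 7.

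The family took up 0.573% of all counts in shControl at day 0 (95% Wilson interval 0.570% to 0.575%) and 0.614% at day 7. In shNFIB the shares were 0.693% and 0.611%. In shMLL1 the share was 0.329% at day 0 (0.327% to 0.331%), the lowest of the 6 libraries, and 0.623% at day 7. All intervals given here for single libraries cover only the error of counting reads, which are not independent molecules.

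Per kilobase of exon, which allows genes to be compared with each other, biglycan was the most abundant member, with a mean of 596.6 CPM per kb over the 6 libraries and values from 368 (shMLL1 at day 7) to 932.7 (shNFIB at day 0). Osteoglycin (Ogn, also called mimecan) followed with a mean of 358 CPM per kb and asporin with a mean of 216 CPM per kb. Prelp, a heparan sulfate-binding member, had a mean of 76.3 CPM per kb, decorin 48.3, osteomodulin 25.1 and lumican 12.9. Podocan (Podn), epiphycan and fibromodulin stood far below these, with means of 0.697, 0.693 and 0.217 CPM per kb. The ranges over the 6 libraries overlapped between every pair of neighbours in this order, and biglycan was above osteoglycin in 4 of 6 libraries and below it in shControl and shMLL1 at day 7. The level of biglycan depends on the length used, since its merged exons span 6099 bp and its longest transcript 2666 bp. Per kilobase of the longest transcript its mean was 1365 CPM per kb, with values from 841.9 to 2134, above osteoglycin in 6 of 6 libraries and with no overlap. The order of the 10 means was the same with either length, and the ranges of the other neighbours overlapped with both. The plot of levels per gene shows the spread of decorin, lumican and epiphycan over libraries, against the narrow spread of biglycan and Prelp.

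**Figure D1:**
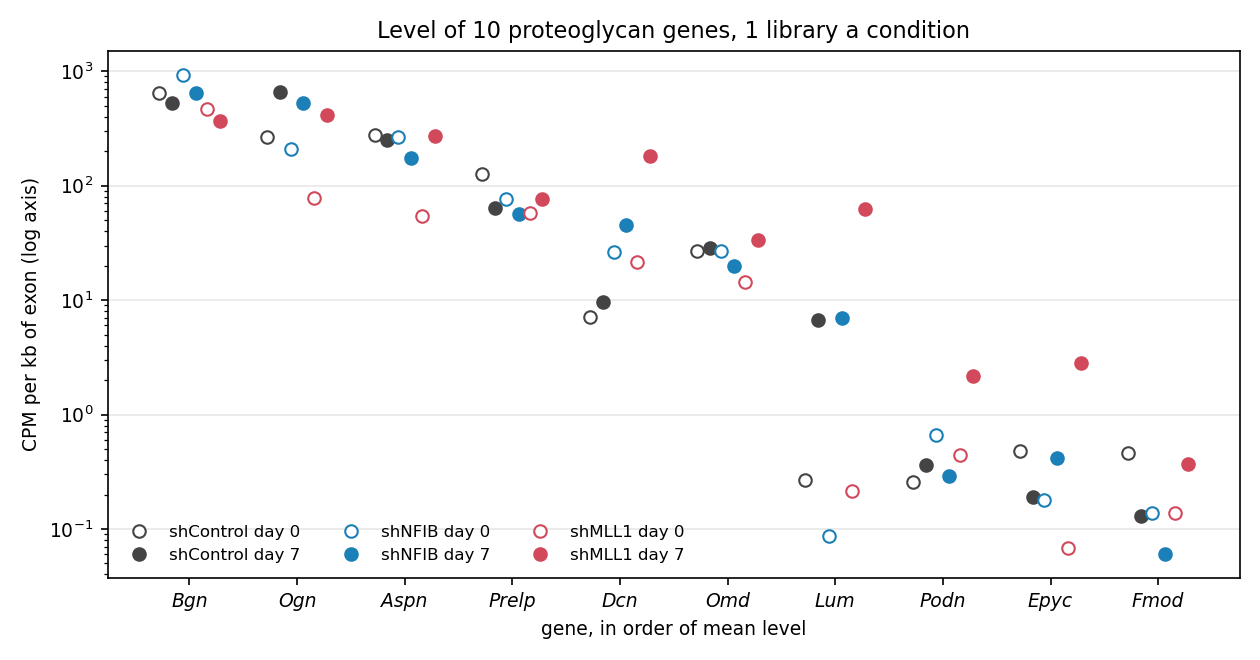
Level of each of the 10 genes in CPM per kb of merged exon (log axis) in the 6 libraries, with 1 point a library, open at day 0 and filled at day 7. Biglycan spanned 368 to 932.7 CPM per kb, whereas lumican spanned 0.0872 to 63.1, with its 3 day 7 points above its 3 day 0 points.

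Decorin made up 0.523% of the summed CPM per kb of the 10 genes in shControl at day 0 and 0.620% at day 7. It made up 1.70% and 3.05% in shNFIB, and 3.09% and 12.8% in shMLL1. Biglycan went from 47.9% to 34.2% in shControl, from 60.6% to 43.5% in shNFIB and from 67.2% to 26.0% in shMLL1, so its share was lower at day 7 in each line. With the length of the longest transcript the biglycan shares were larger, going from 67.6% to 54.2%, from 77.6% to 63.4% and from 82.0% to 43.5%, and were again lower at day 7 in each line. The decorin share in shMLL1 at day 7 was then 11.6%. Lumican reached 4.46% in shMLL1 at day 7 and was at or below 0.478% elsewhere, and with the longest transcript it reached 3.26% there and was at or below 0.305% elsewhere.

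**Figure D2:**
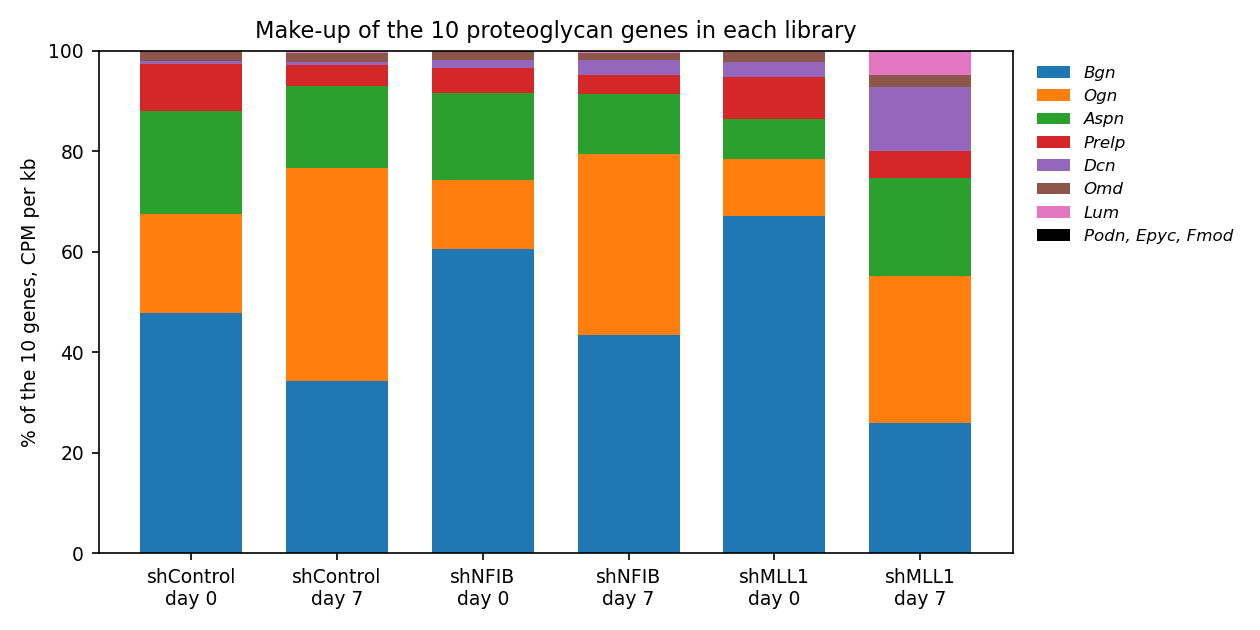
Share of each gene in the summed CPM per kb of merged exon of the 10 genes (bars, in %), for 1 library a condition. Biglycan takes 47.9% of the shControl bar at day 0 and 26.0% of the shMLL1 bar at day 7, where decorin takes 12.8% and lumican 4.46%, and Podn, Epyc and Fmod are too small to see.

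The first comparison asked which members differed between day 7 and day 0 over the 3 lines. Lumican and osteoglycin rose, and none of the other 8 members passed the test in either direction. The test was edgeR's quasi-likelihood fit over all 6 libraries with the line as a block, and a gene was called at a Benjamini-Hochberg adjusted p under 0.05 with a fold change over 2. By the same rule 13.8% of the 16742 genes tested were called higher and 10.8% lower, so 2 of 10 members called higher and 0 called lower is near the share of all genes. The median log2 fold change of the 10 members was 0.51, beside -0.00 over all genes.

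Lumican went from 0.657 CPM at day 0 to 16.4 CPM at day 7 in shControl, from 0.214 to 17.2 CPM in shNFIB, and from 0.523 to 154.5 CPM in shMLL1. All 3 day 7 libraries were above all 3 day 0 libraries, and the fitted log2 fold change was 6.40 (SE 0.67, edgeR adjusted p = 0.000994). The day 0 values rest on 21, 7 and 15 counts. Without the shMLL1 line the log2 fold change was 5.35 and lumican was still called.

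Osteoglycin was at 680.5 then 1678 CPM in shControl, at 537.6 then 1357 CPM in shNFIB and at 201.3 then 1060 CPM in shMLL1. Again the days did not overlap, and the fitted log2 fold change was 1.67 (SE 0.32, edgeR adjusted p = 0.00878). In shControl and shNFIB the day 7 level was 2.46-fold and 2.53-fold the day 0 level, while in shMLL1 it was 5.26-fold. The shMLL1 line started from the lowest day 0 level and ended below the other 2 lines.

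Decorin was higher at day 7 in 3 of 3 lines, but its days overlapped and it was not called, with a log2 fold change of 1.39 (SE 0.51, edgeR adjusted p = 0.0721). DESeq2's Wald test gave it an adjusted p of 0.0109, and over the alternatives run the adjusted p went from 0.00326 to 0.128. Without the shNFIB line it passed, with a log2 fold change of 1.79, where 14.6% of genes were called higher and 11.5% lower. It also passed with DESeq2, beside 12.5% higher and 10.0% lower, and when all genes with at least 1 count were kept, beside 9.01% and 6.69%. Without the shMLL1 line its log2 fold change was 0.62. The fold was largest in shMLL1 and smallest in shControl.

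Epiphycan had a fitted log2 fold change of 1.54 with a wide error (SE 1.19, edgeR adjusted p = 0.342). The remaining 6 members had fitted values between -0.52 (fibromodulin) and 0.56 (podocan) with adjusted p from 0.341 to 0.611. The sign of several of these values rested on 1 line. Without shMLL1, osteomodulin was at -0.16, asporin at -0.37, podocan at -0.35 and epiphycan at -0.0401, and without shControl fibromodulin was at 0.27.

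Within each line the days can be compared only as 1 library against 1 library, with no test. In shControl, 2 members were past 2-fold higher at day 7 (lumican and osteoglycin) and 2 past 2-fold lower (fibromodulin and epiphycan), beside 23.0% and 15.0% of all genes with at least 10 counts in 1 of the libraries. In shNFIB, 3 members were past 2-fold higher (lumican, osteoglycin and epiphycan) and 2 lower (fibromodulin and podocan), beside 17.1% and 13.4%. In shMLL1, 8 of 10 members were past 2-fold higher and 0 lower, beside 24.7% and 21.5%. Only Prelp, at a log2 ratio of 0.41, and biglycan, at -0.34, stayed within 2-fold there. The median log2 ratio of the 10 members was 2.32 in shMLL1, -0.04 in shControl and -0.44 in shNFIB, where the medians over all genes were -0.03, -0.00 and 0.00.

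**Figure D3:**
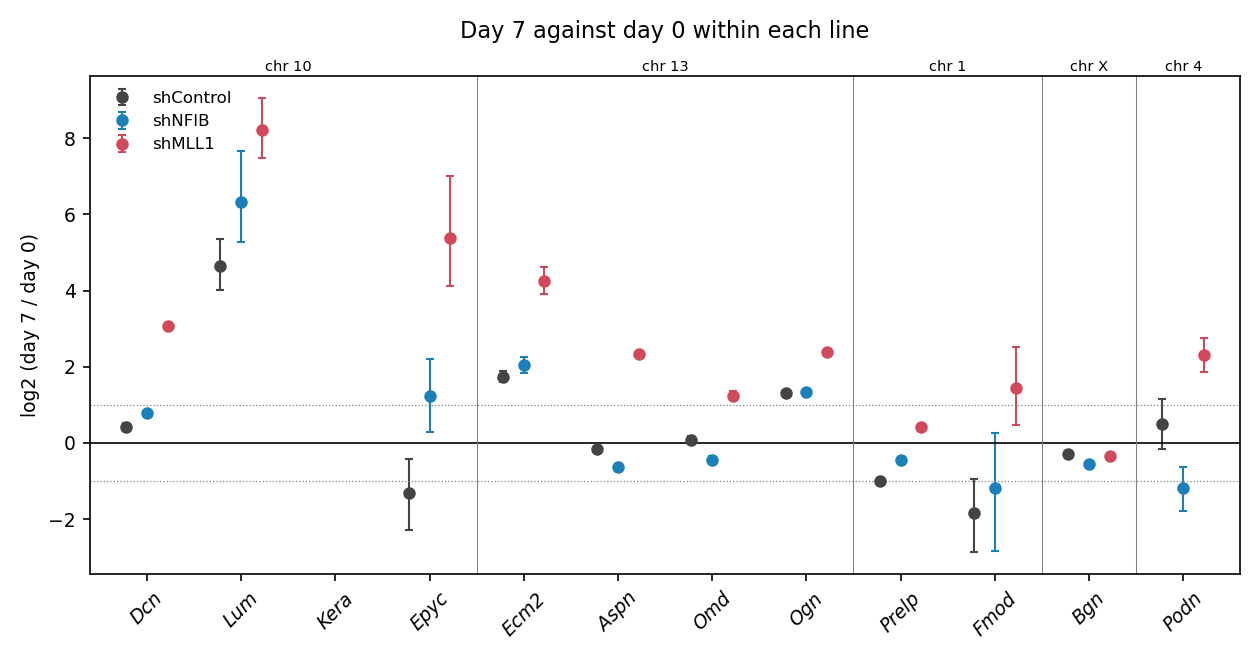
Log2 ratio of day 7 to day 0 within each line for the 10 genes and their neighbours Kera and Ecm2, ordered by chromosome; bars give the 95% counting interval (Clopper-Pearson) and dotted lines mark 2-fold. Kera has no point because its day 0 counts were at or below 3. The shMLL1 ratio was above the shControl ratio for each gene drawn other than Bgn, where they were -0.34 and -0.30.

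The difference between the day response of a knockdown line and that of shControl was then taken for each gene, as a log2 ratio minus a log2 ratio. For shMLL1, 9 of 10 members exceeded the shControl response by over 2-fold, beside 12.2% of all genes, and 0 fell short of it by as much, beside 14.7%. The members' median difference was 2.15, beside -0.05 over all genes. For shNFIB, 2 members (lumican and epiphycan) were past 2-fold above the shControl response, beside 7.52% of all genes. Podocan was past 2-fold below it, beside 14.1%. The differences were 1.69 for lumican (counting interval 0.44 to 2.94), 2.54 for epiphycan (1.30 to 3.77) and -1.67 for podocan (-2.51 to -0.84). The lumican and podocan intervals thus include differences under 2-fold. Lumican had 7 counts in shNFIB and 21 in shControl at day 0, and 516 and 502 at day 7. The differences of both knockdown lines use the same 2 shControl libraries. They were not tested, since each condition has 1 library. The shMLL1 library at day 7 also had the lowest total count and the largest scaling factor. The counts of 9 and of 8 members above were the same with DESeq2's size factors and with library size alone.

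Decorin, lumican, keratocan and epiphycan lie next to each other on chromosome 10 (GRCm38, chr10:97479609-97682454, 202.8 kb, all on the plus strand), and keratocan, although not among the 10 members, is described with them. Decorin (ENSMUSG00000019929) was at 41.3 and 55.7 CPM at day 0 and day 7 in shControl, at 152.6 then 262 CPM in shNFIB and at 125 then 1055 CPM in shMLL1. The shMLL1 library at day 7 was far above the other 5, and both shControl libraries were below the other 4. Its day 7 to day 0 ratio was 8.44-fold in shMLL1 (log2 ratio 3.08, 95% counting interval 3.03 to 3.13), against 1.35-fold in shControl and 1.72-fold in shNFIB. Lumican (ENSMUSG00000036446) was higher at day 7 by a log2 ratio of 8.21 in shMLL1 (7.48 to 9.05), 6.33 in shNFIB (5.28 to 7.66) and 4.64 in shControl (4.02 to 5.35). At day 7 the shNFIB and shControl libraries held it at nearly one level, with a log2 ratio of 0.07 between them (-0.11 to 0.25).

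Epiphycan (ENSMUSG00000019936) had 39 and 15 counts in shControl, 15 and 32 counts in shNFIB, and 5 and 176 counts in shMLL1 at day 0 and day 7. The ratio of days was thus below 1 in shControl (log2 ratio -1.31, -2.28 to -0.42) and above 1 in shNFIB (1.22, 0.30 to 2.21) and shMLL1 (5.37, 4.12 to 7.01). Keratocan (ENSMUSG00000019932), the corneal keratan sulfate proteoglycan, had 1, 1 and 0 counts at day 0 in shControl, shNFIB and shMLL1, and 18, 17 and 585 counts at day 7. In shMLL1 it was at least 229.8-fold higher at day 7, against a floor of 3 counts at day 0. It was called higher at day 7 over the 3 lines (edgeR adjusted p = 0.00443). So the shMLL1 library at day 7 held the highest count of all 4 genes of this cluster. The antisense gene Gm10754, which shares 1041 bp of exon with epiphycan on the opposite strand, had 1 count in all.

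Ecm2, asporin, osteomodulin and osteoglycin form a second cluster on chromosome 13 (GRCm38, chr13:49504810-49624501, 119.7 kb, all on the plus strand), within the span of Cenpp on the opposite strand. Each of these 4 genes was lowest in the shMLL1 library at day 0. Asporin (ENSMUSG00000021388) was at 656 then 590 CPM in shControl, at 626 then 407 CPM in shNFIB, and at 128 then 645 CPM in shMLL1, so that only the shMLL1 library at day 0 stood apart. Osteomodulin (ENSMUSG00000048368) was at 60.5 then 64.0 CPM in shControl, at 60.6 then 44.8 CPM in shNFIB, and at 32.2 then 76.1 CPM in shMLL1. Osteoglycin (ENSMUSG00000021390), given above, had the same low value at day 0 in shMLL1 and a day response in every line.

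Against shControl at day 0, the shMLL1 library was lower by a log2 ratio of -2.36 for asporin (95% counting interval -2.41 to -2.31), -1.76 for osteoglycin (-1.80 to -1.72), -0.91 for osteomodulin (-1.03 to -0.80) and -2.59 for Ecm2 (-2.98 to -2.22). At day 7 the same ratios were 0.13, -0.66, 0.25 and -0.08. The distance between the lines was therefore smaller at day 7 for all 4 genes. Ecm2 (ENSMUSG00000043631), a matrix protein with leucine-rich repeats, was called higher at day 7 over the 3 lines, with a log2 fold change of 2.61 (SE 0.48, edgeR adjusted p = 0.00799). Cenpp, a centromere gene, was at 24.1, 24.5 and 22.1 CPM at day 0 and at 10.3, 3.67 and 10.5 CPM at day 7 in shControl, shNFIB and shMLL1, and shares only 7 bp of exon with asporin.

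Promoters of 8 of the 10 members are listed in RefSeq's table for GRCm38.p6, as 300 bases from 250 before the start site to 50 after it, and those of the chromosome 13 members are printed because these genes shared the low day 0 value in shMLL1. They are followed by those of biglycan, the most abundant member, and epiphycan (the first of its promoters), whose day responses in shMLL1 differed least and most from shControl, by -0.04 and 6.69 on the log2 scale. All 5 are on the plus strand. The low day 0 value in shMLL1 was not confined to chromosome 13. Against shControl, epiphycan (log2 ratio -2.81), fibromodulin (-1.76), Prelp (-1.13), biglycan (-0.48) and lumican (-0.33) were also lower there. Decorin (1.60) and podocan (0.78) were higher. Capitals mark the NFI core motif TTGGC and the TATA box TATAAA on either strand.

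Aspn chr13:49544193-49544492: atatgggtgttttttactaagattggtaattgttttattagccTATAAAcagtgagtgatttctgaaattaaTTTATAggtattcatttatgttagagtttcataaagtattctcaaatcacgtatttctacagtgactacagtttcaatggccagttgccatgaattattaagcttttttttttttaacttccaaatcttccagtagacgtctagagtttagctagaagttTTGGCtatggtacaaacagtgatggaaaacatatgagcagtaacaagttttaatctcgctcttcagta
Omd chr13:49582212-49582511: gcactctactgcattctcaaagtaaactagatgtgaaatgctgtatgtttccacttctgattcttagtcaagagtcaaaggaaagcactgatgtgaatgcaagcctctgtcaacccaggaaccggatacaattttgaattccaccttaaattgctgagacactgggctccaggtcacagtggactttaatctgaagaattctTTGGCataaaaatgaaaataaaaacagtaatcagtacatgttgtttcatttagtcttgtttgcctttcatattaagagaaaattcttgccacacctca
Ogn chr13:49607765-49608064: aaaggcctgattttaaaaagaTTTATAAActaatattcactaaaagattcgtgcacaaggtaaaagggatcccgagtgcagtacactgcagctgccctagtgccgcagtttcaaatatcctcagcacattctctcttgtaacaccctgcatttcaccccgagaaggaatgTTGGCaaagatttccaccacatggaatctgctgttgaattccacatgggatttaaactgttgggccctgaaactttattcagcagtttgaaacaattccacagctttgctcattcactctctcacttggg
Bgn chrX:73483351-73483650: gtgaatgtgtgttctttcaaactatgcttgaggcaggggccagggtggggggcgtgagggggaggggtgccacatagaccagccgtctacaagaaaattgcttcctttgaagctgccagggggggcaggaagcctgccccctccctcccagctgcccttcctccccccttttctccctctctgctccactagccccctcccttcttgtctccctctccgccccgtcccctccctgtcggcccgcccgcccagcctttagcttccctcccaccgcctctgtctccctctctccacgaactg
Epyc chr10:97643818-97644117: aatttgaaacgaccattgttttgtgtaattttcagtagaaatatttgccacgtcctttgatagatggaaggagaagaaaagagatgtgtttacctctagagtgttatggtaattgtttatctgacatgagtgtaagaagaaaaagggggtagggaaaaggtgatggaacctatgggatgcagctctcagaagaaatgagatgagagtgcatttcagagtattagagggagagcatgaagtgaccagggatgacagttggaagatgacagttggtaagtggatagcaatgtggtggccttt

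The asporin, osteomodulin and osteoglycin promoters were poor in G and C, at 31.0%, 37.7% and 42.3%, with 3, 1 and 4 CpG, whereas the median over 32851 promoters of the table was 52.7% with 7 CpG. The biglycan promoter was at 63.7% with 9 CpG. A low share was not confined to chromosome 13, since the 2 epiphycan promoters were at 40.3% with 2 CpG (printed) and 32.3% with 1 CpG. Fibromodulin was at 51.0% with 3 CpG, Prelp at 55.3% with 7, and the 2 podocan promoters at 77.0% with 41 and 63.0% with 7. The 3 chromosome 13 promoters each held 1 match to TTGGC, at -18 in asporin, -48 in osteomodulin and -80 in osteoglycin, counted from the start site to the leftmost base. The printed epiphycan promoter held no match, while the second epiphycan promoter, not printed, held 1 at -165. Of the 10 promoters of the 8 members, 7 held TTGGC, beside 46.7% of all promoters, and 0 held the full palindrome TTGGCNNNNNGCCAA, which 0.0365% of all promoters hold. TATAAA was found in the promoters of osteoglycin and asporin and in 13.6% of all promoters. The RUNX motif TGTGGT was found in those of osteoglycin and epiphycan and in 16.8% of all promoters, the SP1 motif GGGCGG in biglycan and podocan and in 35.7%, the glucocorticoid receptor motif TGTTCT in biglycan and in 19.0%, and the AP-1 motif TGANTCA in none of the 10 and in 7.81%. Both strands were searched, the palindrome contains the NFI core, and a match is a run of letters, not a shown binding site.

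Prelp and fibromodulin lie with opticin (Optc) on chromosome 1 (GRCm38, chr1:133897199-134048277, 151.1 kb). Prelp (ENSMUSG00000041577, minus strand) was at 456.6 then 230 CPM in shControl, at 278 then 205 CPM in shNFIB, and at 209 then 277 CPM in shMLL1. It was highest in shControl at day 0 and lay between 205 and 278 CPM in the other 5 libraries. Its antisense neighbour Gm15851, which shares 350 bp of exon with it, had at most 4 counts in any library. Fibromodulin (ENSMUSG00000041559, plus strand), known from tendon, had 49 and 13 counts in shControl, 15 and 6 counts in shNFIB, and 13 and 30 counts in shMLL1. Its shMLL1 libraries thus went the other way from its shControl libraries, with log2 ratios of 1.44 (0.46 to 2.51) and -1.85 (-2.86 to -0.95). Opticin had at most 14 counts in any library.

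Biglycan (ENSMUSG00000031375, GRCm38, chrX:73483602-73495933, plus strand) was at 3952 then 3212 CPM in shControl, at 5689 then 3899 CPM in shNFIB, and at 2837 then 2245 CPM in shMLL1. It was lower at day 7 in 3 of 3 lines, by log2 ratios of -0.30, -0.55 and -0.34, and was not called (log2 fold change -0.39, SE 0.31, edgeR adjusted p = 0.341). At each day it was highest in shNFIB and lowest in shMLL1. Podocan (ENSMUSG00000028600, GRCm38, chr4:108014791-108096445, minus strand), first known from the kidney glomerulus, had 35 and 47 counts in shControl, 92 and 37 counts in shNFIB, and 54 and 226 counts in shMLL1. Its log2 ratio of days was 0.49 in shControl (-0.17 to 1.16), -1.18 in shNFIB (-1.78 to -0.62) and 2.30 in shMLL1 (1.87 to 2.76).

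The second comparison asked which members differed between a knockdown line and shControl over both days. No member was called by edgeR in either line, where 0.113% of genes were called higher and 0.305% lower in shNFIB, and 0.0119% and 0.0179% in shMLL1. At an unadjusted p under 0.05, 2077 and 1540 genes passed. With 2 libraries a line, a difference present at only 1 day counts as error in this fit. Decorin had the largest fitted difference of the 10 in both lines, with a log2 fold change of 2.02 in shNFIB (SE 0.60, edgeR adjusted p = 0.242) and 3.08 in shMLL1 (SE 0.65, edgeR adjusted p = 0.155). Both libraries of each knockdown line were above both libraries of shControl. DESeq2 called it in both lines, with adjusted p of 0.0138 and 1.07e-05, where it called 1.50% of genes higher and 1.71% lower in shNFIB, and 0.976% and 1.26% in shMLL1. With all genes of at least 1 count kept in edgeR, decorin was called in both lines and lumican in shMLL1, beside 1.17% of genes higher and 1.19% lower in shNFIB and 0.813% and 0.999% in shMLL1. With the 4 libraries of shNFIB and shControl alone it was called too, beside 1.61% and 1.83%, and with those of shMLL1 and shControl alone no member was, beside 0.552% and 0.669%. Over the alternatives run, its adjusted p went from 0.00237 to 1.00 in shNFIB and from 1.07e-05 to 1.0 in shMLL1.

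The other members had fitted differences from shControl between -1.51 (fibromodulin) and 0.76 (podocan) in shNFIB. In shMLL1 they lay between -1.18 (osteoglycin, SE 0.38, edgeR adjusted p = 0.384) and 2.00 (lumican, SE 0.75, edgeR adjusted p = 0.473). Between the knockdown lines, lumican was higher in shMLL1 by a log2 fold change of 2.65 (SE 0.71, edgeR adjusted p = 0.140, DESeq2 0.00579, over the alternatives 0.000796 to 0.977) and biglycan lower by -0.90 (SE 0.38, edgeR adjusted p = 0.256, DESeq2 0.0108, over the alternatives 0.0108 to 0.977). DESeq2 called 2.30% of genes higher and 3.26% lower, and of the members only lumican. Keeping all genes with at least 1 count also called lumican, beside 1.35% and 2.21%. No member was called there by edgeR, which called 0.233% of genes higher and 0.299% lower and had 3181 genes at an unadjusted p under 0.05.

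Library against library, shMLL1 at day 0 had 1 member past 2-fold above shControl (decorin) and 5 below it (fibromodulin, osteoglycin, asporin, Prelp and epiphycan), beside 12.2% and 8.34% of all genes. At day 7 it had 5 above (decorin, lumican, fibromodulin, podocan and epiphycan) and 0 below, beside 8.69% and 6.90%. The median log2 ratio of the 10 members was -1.02 at day 0 and 0.90 at day 7, beside 0.04 and -0.02 over all genes. Fibromodulin and epiphycan were on the low side at day 0, at -1.76 and -2.81, and on the high side at day 7, at 1.53 and 3.88. At day 7 decorin was 18.9-fold, epiphycan 14.7-fold, lumican 9.40-fold, podocan 6.04-fold and fibromodulin 2.90-fold the shControl level.

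In shNFIB at day 0, decorin and podocan were past 2-fold above shControl and lumican, fibromodulin and epiphycan below it, beside 6.71% and 6.82% of all genes. At day 7, decorin and epiphycan were above and fibromodulin below, beside 7.88% and 13.5%. Decorin was past 2-fold above at both days, at 3.69-fold and 4.71-fold the shControl level, and fibromodulin past 2-fold below at both, on at most 49 counts and with a day 7 interval that includes 0 (-2.77 to 0.41). The shNFIB and shMLL1 ratios share the shControl library of each day. For decorin at day 0 they were 1.89 and 1.60 on the log2 scale, and at day 7 they were 2.23 and 4.24. For asporin they were -0.07 and -2.36 at day 0, and -0.53 and 0.13 at day 7.

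**Figure D4:**
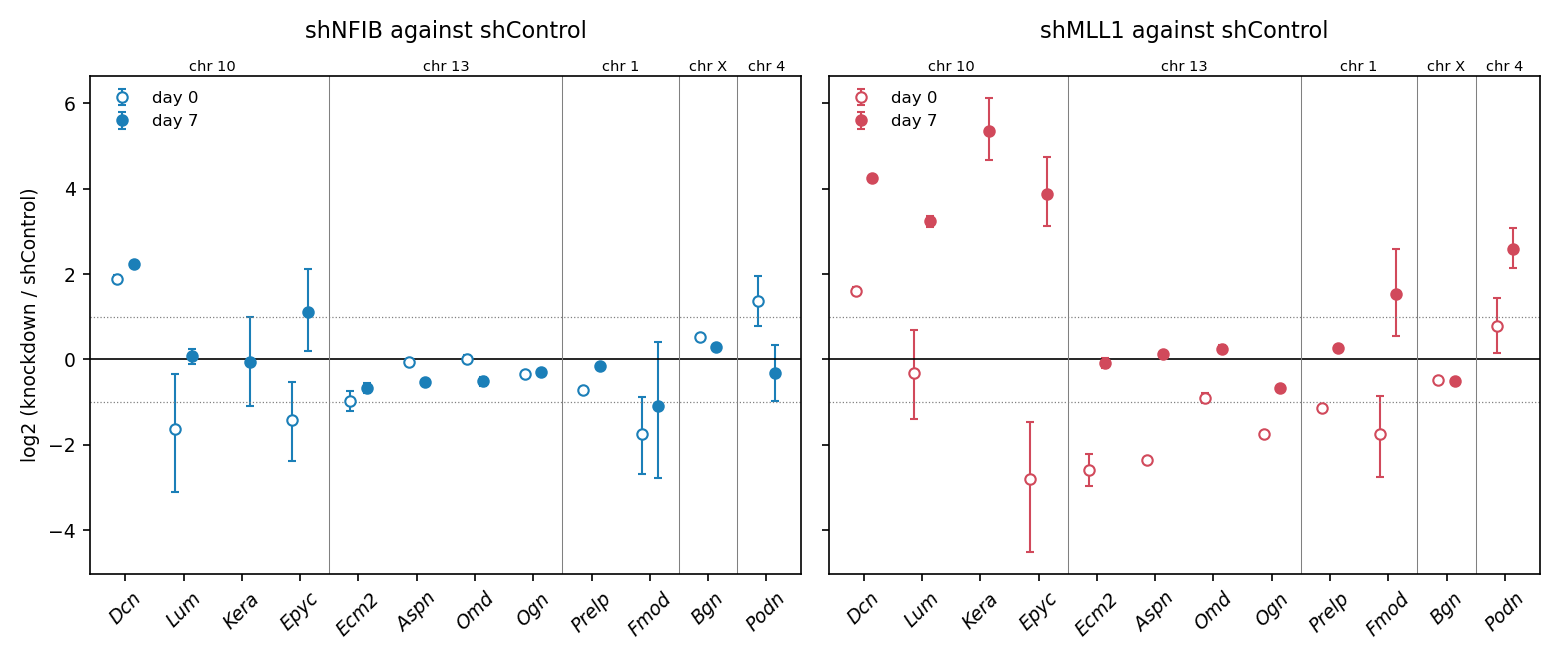
Log2 ratio of shNFIB (left) and shMLL1 (right) to shControl at day 0 (open) and day 7 (filled), ordered by chromosome, with 1 library a condition; bars give the 95% counting interval (Clopper-Pearson), dotted lines mark 2-fold and ratios with a count at or below 3 are left out. In shMLL1 the chromosome 13 genes lie between -2.59 and -0.91 at day 0 and between -0.66 and 0.25 at day 7, and the chromosome 10 genes between 3.23 and 5.35 at day 7.

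The other genes of the pathway were read from lists by function, and their counts stand beside the 13.8% of all tested genes called higher and 10.8% called lower at day 7. Among the 9 remaining genes of the family, 7 could be tested, and Kera, Nyx and Ecm2 were called higher at day 7 and none lower, with a median log2 fold change of 1.21. Nyctalopin (Nyx) was at 0.188 then 2.16 CPM in shControl, at 0.183 then 6.14 CPM in shNFIB, and at 0.244 then 2.34 CPM in shMLL1, a log2 fold change of 3.94 (SE 0.52, edgeR adjusted p = 0.00230). Tsukushi (Tsku) was the most abundant of them per length, at 11.3 CPM per kb, and was not called (edgeR adjusted p = 0.103). Chad, Chadl and Podnl1 were not called, and Optc and Nepn had too few counts to test.

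Of the 22 genes that build chondroitin and dermatan sulfate chains, 20 were tested, 2 were called higher and 2 lower at day 7, no more than the 13.8% and 10.8% of all genes, and the median log2 fold change was -0.46. The sulfotransferases Chst15 and Chst11, which act on chondroitin, rose by 2.64 (SE 0.24, edgeR adjusted p = 0.000642) and 1.82 (SE 0.40, edgeR adjusted p = 0.0144). Chst7, another chondroitin sulfotransferase, was lower by -3.03 (SE 0.26, edgeR adjusted p = 0.000541) and Csgalnact1, which starts the chondroitin chain, by -1.46 (SE 0.23, edgeR adjusted p = 0.00483). Chst11 was at 32.9, 15.2 and 5.13 CPM at day 0 and at 52.4, 58.9 and 37.4 CPM at day 7 in shControl, shNFIB and shMLL1. Chpf, the most abundant of them per length at 31.9 CPM per kb, was not called. Among 10 genes of keratan sulfate synthesis and tyrosine sulfation, 7 were tested and Chst1, the keratan sulfate sulfotransferase, was called lower (log2 fold change -2.65, SE 0.24, edgeR adjusted p = 0.000634), and B4galt1 was the most abundant.

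For the supply of activated sulfate and sugar, 3 of 6 tested genes were called lower at day 7, beside 10.8% of all genes, and 0 higher, beside 13.8%, with a median of -0.999. They were Papss1 (-1.29), Papss2 (-2.90), both of which make the sulfate donor, and Ugdh (-1.12), which makes UDP-glucuronate. Papss2 was at 47.1, 15.5 and 6.31 CPM at day 0 and at 8.84, 1.07 and 1.11 CPM at day 7 in shControl, shNFIB and shMLL1, so both knockdown lines were below shControl at each day (edgeR adjusted p = 0.0853 for shNFIB and 0.0779 for shMLL1). Slc35b2, the most abundant of the list per length, was not called.

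Among proteases that cut the propeptides or the core proteins, and their enhancers, 10 genes were tested, 5 were called higher, beside 13.8% of all genes, and 2 lower, beside 10.8%, at day 7, with a median of 1.42. The 5 were Bmp1 (1.36), which removes the propeptide of biglycan, the metalloproteinases Mmp2 (1.99), Mmp3 (4.19) and Mmp14 (1.48), and the aggrecanase Adamts4 (2.10). The 2 were Tll1 (-1.83), a relative of Bmp1, and Pcolce2 (-2.06), which enhances the cutting of procollagen. Mmp3 stood apart by line, at 3.17 CPM in shControl, 157.6 CPM in shNFIB and 12.8 CPM in shMLL1 at day 7.

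Of the 12 collagens on the list, Col5a2 (-1.16) and Col11a1 (-1.01), which sit in the core of collagen fibrils, were called lower at day 7 and none higher, with a median of -0.83. Col1a2 was the most abundant and was not called (edgeR adjusted p = 0.0534). The collagen VI genes were not called either. Col6a1 was at 925, 829 and 210.4 CPM at day 0 and at 819.5, 793 and 1086 CPM at day 7 in shControl, shNFIB and shMLL1, and Col6a2 at 690.4, 567 and 125 CPM and at 443.5, 407 and 639 CPM. Both were lowest in shMLL1 at day 0, as asporin was. The third gene, Col6a3, was at 470, 1030 and 352 CPM at day 0 and at 549, 937.5 and 700 CPM at day 7. At day 0 its shMLL1 to shControl log2 ratio was -0.42, beside -2.14 for Col6a1 and -2.46 for Col6a2. Col6a1 and Col6a3 were singled out after their values were seen. Among 14 receptors and ligands 11 were tested, Egfr, a decorin receptor, was called higher (1.16), and Met (-1.49), another decorin receptor, and Ccn4 (-2.56), a secreted decorin-binding protein, lower. The most abundant, Lrp1, was not called. None of the genes on these pathway lists was called by edgeR in any comparison of lines.

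**Figure D5:**
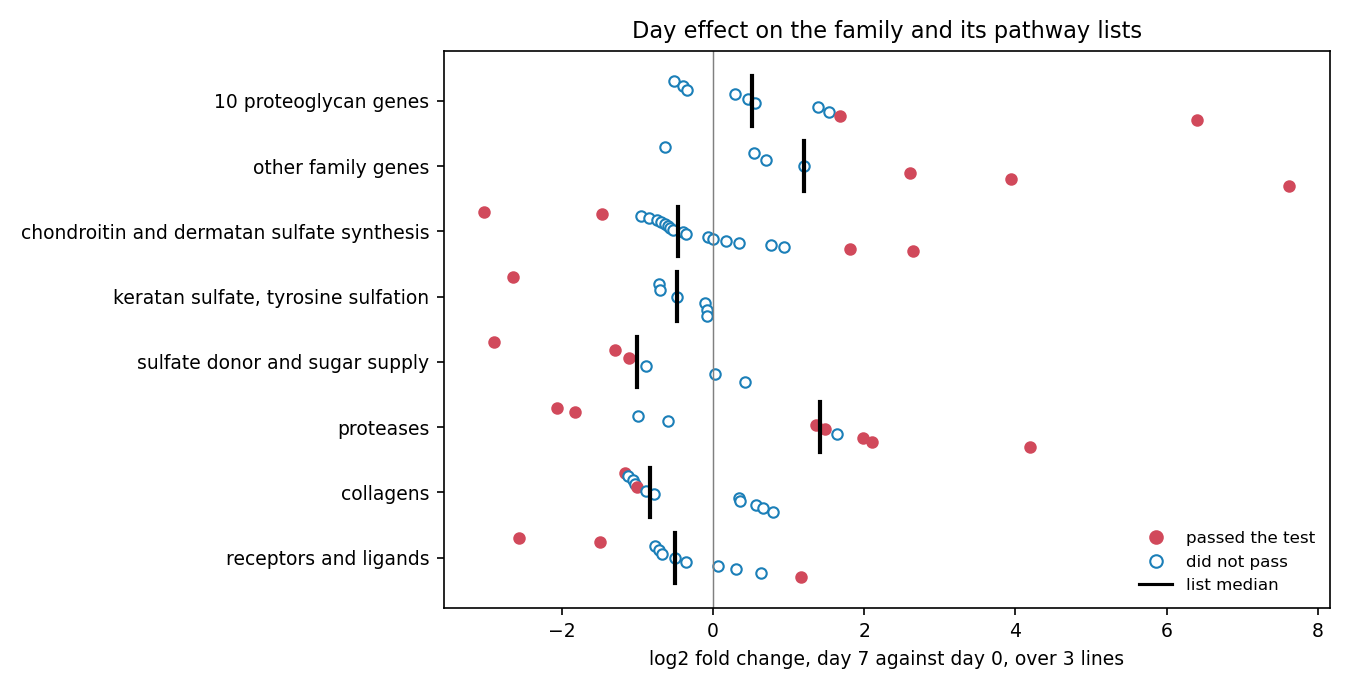
Fitted log2 fold change of day 7 against day 0 over the 3 lines for each tested gene of 8 lists, with 1 point a gene, filled where it was called, and a bar at the list median. The medians run from -0.999 for sulfate donor and sugar supply to 1.42 for proteases, with the 10 proteoglycan genes at 0.51.

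Some markers of other cell types also differed between the days, where 13.8% of all tested genes were called higher and 10.8% lower. Of 5 tested tendon markers, Scx, Mkx, Tnmd and Tnc were called lower at day 7 and Kera higher, and the list summed to 72.8 to 88.6 CPM at day 0 and to 21.1 to 44.0 CPM at day 7. Of 5 tested cartilage markers Comp was called higher and Col2a1 lower, and Acan was at 0 in every library. Of 7 tested adipocyte markers Plin1, Cidec and Lpl were called higher, with Cidec at 22.3 CPM in shControl, 0.167 CPM in shNFIB and 0.699 CPM in shMLL1 at day 7, and Adipoq had at most 1 count. Lpl went from 6 to 1084 counts in shControl, from 7 to 22 in shNFIB and from 0 to 4 in shMLL1. Of 5 tested osteoblast markers Alpl (log2 fold change 4.45, edgeR adjusted p = 0.00156) and Ifitm5 (1.82, edgeR adjusted p = 0.0358) were called higher and none lower. Alpl went from 7 to 111 counts in shControl and from 8 to 215 in shNFIB, but had 0 then 2 counts in shMLL1. Of 10 tested mesenchymal markers Pdgfra was called higher and Vim, Thy1 and Cd44 lower, and Cdh1 was called lower. Against shControl, shNFIB had 1 cartilage marker called lower (Col9a1, with 0 counts) and 1 mesenchymal marker called higher (Thy1), and shMLL1 had none. Of all genes, 0.305% were called lower and 0.113% higher in shNFIB. Between the knockdown lines, Thy1 (-3.20), Alpl (-6.23) and Pparg (-1.99) were called lower in shMLL1 and no marker higher, beside 0.299% and 0.233% of all genes. The part of these cells or states in the proteoglycan values was not tested.

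For the 3 most abundant members, the genes with the most similar profile were named from 9906 genes with a mean of at least 10 CPM, by Pearson's r of log2 CPM over the 6 libraries, which share depth, line and day. Biglycan was most like Atp2c1 (r = 0.998), Foxp4 (0.992) and Itgb3 (0.990). Osteoglycin was most like Hoxaas2 (0.998), Jmjd8 (0.995) and Samd14 (0.994), and asporin like Plcd1 (0.988), Setd1b (0.984) and Col6a2 (0.982). With 6 points and so many genes, values this high are a description of the libraries. Among the members themselves, asporin and osteomodulin had r = 0.933, fibromodulin and Prelp 0.848, and decorin and podocan 0.828, and lumican and biglycan were most opposed at -0.662.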

How the data were processed

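Raw counts were analysed for the 6 RNA-seq libraries, 1 for each line and day. The deposited counts were made by the authors, who trimmed reads with Trimmomatic 0.39, aligned them to GRCm38 with HISAT2 2.2.1, filtered them with SAMtools 1.12, removed PCR duplicates and counted them per Ensembl gene with HTSeq 0.11.1, so they are not normalized. The annotation release and the strand setting are not given in the sources used here. No row named no gene.

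Following the study's methods, edgeR with TMM scaling was used, with calls at an adjusted p under 0.05 and more than 2-fold. The version here was edgeR 4.0.16 (R 4.3.3), in a quasi-likelihood fit of line and day to the 16742 genes kept by filterByExpr (2 residual degrees of freedom for each gene before moderation, common BCV 0.281). With 1 library a condition, the error behind the p-values is how far the day responses differ between the lines, not the spread between cultures. A day response that differs between lines therefore counts as error in the day test too. The line pairs the libraries of both days, which come from the same cells, and deviations of the 2 days correlated at 0.424, 0.423 and 0.269. Pairs of libraries were compared as ratios of TMM-scaled counts with exact 95% Clopper-Pearson intervals (scipy 1.17.1), and a count at or below 3 was the floor. Exon lengths and positions are from GENCODE M21, which names 55141 of the 55401 genes; promoters are from RefSeq. Figures were drawn with matplotlib 3.10.9.

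The genes and lists were chosen with earlier results of these data known. Named genes were the members, the hairpin targets, pathway list genes called in a comparison or highest in level, and the 3 genes most like each of the 3 most abundant members among those at 10 CPM or more (log2 of CPM plus 0.5). Marker genes, genes next to or overlapping a member and the remaining uncalled genes of the family were named outside this rule, after their values were seen. The difference in day response was defined after the data were seen. Alternatives were DESeq2's size factors, library size alone, DESeq2 1.42.0's Wald test, all genes with a count, no block, each line left out, only the 4 libraries compared, the adjusted p alone, no count minimum and another gene length.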

Additional observations from a re-analysis of the deposited data

Results flagged for a closer look

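Some members moved in opposite directions between the days in a knockdown line and in shControl, with 1 library a condition, and the differences were not tested. Asporin was higher at day 7 in shMLL1 (log2 ratio 2.34) and lower in shControl (-0.15), a difference of 2.49. Fibromodulin differed by 3.29 between shMLL1 (1.44) and shControl (-1.85), on at most 49 counts a library. Prelp differed by 1.40 between shMLL1 (0.41) and shControl (-0.99). Epiphycan was lower at day 7 in shControl (-1.31) and higher in both knockdown lines, which gave a difference of 2.54 for shNFIB (1.22) and 6.69 for shMLL1 (5.37), the latter on 5 counts in shMLL1 at day 0.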

How the results depend on the processing

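Of the counts of members past a threshold, 48 values under an alternative stayed within 1.5 times the main count and 7 did not. All 7 were knockdown comparisons in which edgeR called no member. DESeq2's Wald test called 1 member in shNFIB and 1 in shMLL1 against shControl (decorin in both) and 1 between the knockdown lines (lumican). All genes with at least 1 count gave 1, 2 and 1, and the 4 libraries of shNFIB and shControl alone gave 1. Over all genes the same choices moved the calls from 19 higher and 51 lower to 258 and 294 (DESeq2), 341 and 346 (all genes) and 255 and 290 (4 libraries) in shNFIB, from 2 and 3 to 168 and 217, 236 and 290 and 90 and 109 in shMLL1, and from 39 and 50 to 357 and 507 (DESeq2) and 391 and 643 (all genes) between the knockdown lines. The cause was not tested.

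Without the replicate block, 2 members were still called for the day (lumican at 7.09 and osteoglycin at 1.55) and 0 in each line comparison, where it left 0 genes called in all; lumican changed sign in shNFIB to 0.0286 and osteomodulin between the knockdown lines to 0.0377. Leaving out one line at a time gave 2 to 3 members called for the day. The fitted value ran from -1.55 to 0.27 for fibromodulin (positive without shControl), and, lowest and below 0 without shMLL1, from -0.16 to 0.69 for osteomodulin, -0.37 to 1.1205 for asporin, -0.35 to 1.47 for podocan and -0.0401 to 3.17 for epiphycan. Fibromodulin in shMLL1 against shControl, at -0.01, went to 0.0033 with DESeq2's size factors, 0.0234 with library size alone and 0.0501 with DESeq2, osteomodulin between the knockdown lines to 0.0554 with library size alone, and Prelp there to -0.0138 with all genes. None of these was called. In all, of the members' fitted fold changes under an alternative, 227 kept their direction and side of the threshold, 11 came to pass it and 12 changed sign. Of the ratios of single libraries, 166 stayed within their counting interval and 44 did not. With the longest transcript as length, 24 levels or shares per length moved and 4 did not, which for shares was tried after seeing the data, and the mean of biglycan went from 596.6 to 1365 CPM per kb. Library size alone moved the median day effect of all genes from -0.00 to 0.14. Ratios under 50 counts, as for fibromodulin, epiphycan and lumican at day 0, are limited by depth.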
